A study of Arabidopsis thaliana with 18 samples.

Results

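miRNAs bound to the protein ARGONAUTE1 (AGO1) were compared with all miRNAs of the same kind of tissue, rosette leaves of mock-treated Arabidopsis thaliana of the ecotype Col-0. The 6 libraries, of 18 in the series, are 3 AGO1-immunoprecipitated and 3 total small RNA libraries. The AGO1 libraries held small RNA eluted from AGO1 complexes that had been captured with an antibody against AGO1, and the total libraries held small RNA isolated from 8 µg of total RNA. Plants of both groups were wild type, were grown on soil with 8 h of light at 22 °C for 5 to 6 weeks and received the mock treatment of a fungal infection experiment. The other 12 libraries are from untreated and Alternaria brassicicola-treated leaves. What the mock solution held and when mock leaves were harvested are not given in the sources used here. The comparison asks which miRNAs are found in AGO1 and in what proportions, relative to the pool that the leaf holds. All listed miRNAs were taken as members: 101 families with 476 distinct sequences, of which 80 families and 300 sequences passed the filter on low read numbers and were tested. Small RNA reached the libraries by different routes, and how the AGO1 libraries were prepared after elution is not known here, so binding to AGO1 and preparation cannot be told apart in any difference below. The labels also describe a fraction without antibody, which was not analysed here, so the background of the capture is not known. In whole leaves, fewer cells of a type and less RNA per cell cannot be told apart.

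Plant miRNAs are cut by DICER-LIKE1 from a hairpin precursor as a duplex of a 5p and a 3p strand. ARGONAUTE proteins take up 1 strand of the duplex and use it to find target transcripts, which AGO1, the main ARGONAUTE of the miRNA pathway, cuts or represses. The base at the 5′ end is known to steer strands to different ARGONAUTEs: AGO1 prefers U, AGO2 and AGO4 prefer A and AGO5 prefers C. Some miRNAs have dedicated partners, such as miR390, which acts in AGO7, and miR165 and miR166, which are sequestered by AGO10 in the shoot meristem.

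The AGO1 libraries held 18459117, 14547185 and 12998921 miRNA reads, and the total libraries 1419447, 1166166 and 3034481. miRNAs made up 83.4, 77.8 and 79.4% of genome-matched reads in AGO1 libraries, against 5.33, 7.06 and 13.2% in total libraries. The difference was 71.7 percentage points (exact two-sided permutation p = 0.1, the smallest value that 3 against 3 can give). No listed value is under 15 reads in a sequencing run, and each library was sequenced in 2 runs. A 0 can therefore stand for as many as 28 reads per library and sequence. That limit equals 1.52 to 2.15 CPM (reads scaled to a common miRNA total per library) in AGO1 libraries and 9.23 to 24 CPM in total libraries. Levels below are given as CPM or as percent of miRNA reads, and the listing limits cover counting error only, while SD and SE hold the spread between libraries. Log2 changes come from limma on log2(CPM + 1) after scaling by trimmed mean of M-values (TMM). Relative to plain CPM, that scaling adds a mean of 1.13 on the log2 scale to families, 1.02 to sequences and 1.41 to arms. The shift is smaller where a level is very low or listed at 0, because 1 is added to each CPM.

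The sequences that carry the comparison are printed first, as the deposited table gives them (T for U), with bases 2 to 8, the seed that leads target pairing, in capitals. Coordinates are those of exact matches on the RefSeq copy of build TAIR10, and all but the tRNA fragment lie within annotated MIR precursors. The first set is the main AGO1 sequence of the 6 families that were higher in AGO1 under all 4 scalings tried and averaged at least 100 CPM there. They begin with T, and those of miR165 and miR166 share a seed and differ by C17T, counted from the 5′ end with the miR165 base first.
miR166-3p, MIR166a and 6 further loci, plus strand, chr2:19176241-19176261: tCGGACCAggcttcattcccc
miR165-3p, MIR165a and MIR165b, minus strand, chr1:78932-78952: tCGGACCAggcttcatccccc
miR158-3p, MIR158a, minus strand, chr3:3366349-3366368: tCCCAAATgtagacaaagca
miR398-3p, MIR398b and MIR398c, plus strand, chr5:4691107-4691127: tGTGTTCTcaggtcacccctg
miR850-5p, MIR850, plus strand, chr4:7845756-7845777: tAAGATCCggactacaacaaag
miR847-3p, MIR847, plus strand, chr1:2165675-2165695: tCACTCCTcttcttcttgatg

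The second set is the main sequence, in total libraries, of families that were scarce in AGO1. The first 5 begin with T like the set above, and the other 4 with A, G or C.
miR164-5p, MIR164a and MIR164b, plus strand, chr2:19520770-19520790: tGGAGAAGcagggcacgtgca
miR168-5p, MIR168a and MIR168b, plus strand, chr4:10578652-10578672: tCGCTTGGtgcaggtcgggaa
miR167-5p, MIR167a and MIR167b, plus strand, chr3:8108090-8108110: tGAAGCTGccagcatgatcta
miR173-5p, MIR173, plus strand, chr3:8236161-8236182: tTCGCTTGcagagagaaatcac
miR160-5p, MIR160a and 2 further loci, plus strand, chr2:16340282-16340302: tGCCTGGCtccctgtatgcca
miR390-5p, MIR390a and MIR390b, plus strand, chr2:16061971-16061991: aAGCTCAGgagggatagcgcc
miR172-3p, MIR172a and MIR172b, minus strand, chr2:11942918-11942938: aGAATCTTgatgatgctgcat
miR8175-3p, MIR8175, plus strand, chr2:3740938-3740957: gATCCCCGgcaacggcgcca
miR6478, 64 genome matches, tRNA: cCGACCTTagctcagttggt

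The AGO1-bound pool was almost entirely U-first. Reads that begin with U made up 99.8% of miRNA reads in each of the 3 AGO1 libraries, against 78.0, 76.9 and 81.4% in total libraries. The difference was 21 percentage points, and the libraries did not overlap (exact permutation p = 0.1, the smallest possible). A-first reads averaged 0.0461 ± 0.00801% in AGO1 libraries and 16.1 ± 1.61% in total libraries (SD, n = 3 each). The miR390 family alone averaged 15.2% of total reads. G-first reads averaged 0.0201 ± 0.00335% in AGO1 libraries and 4.25 ± 1.07% in total libraries. C-first reads averaged 0.156 ± 0.0213% in AGO1 libraries and 0.858 ± 0.147% in total libraries. Leaving out miR165 and miR166, which dominate the AGO1 libraries, the U-first share was 99.5% in AGO1 libraries and 76.0% in total libraries.

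**Figure D1:**
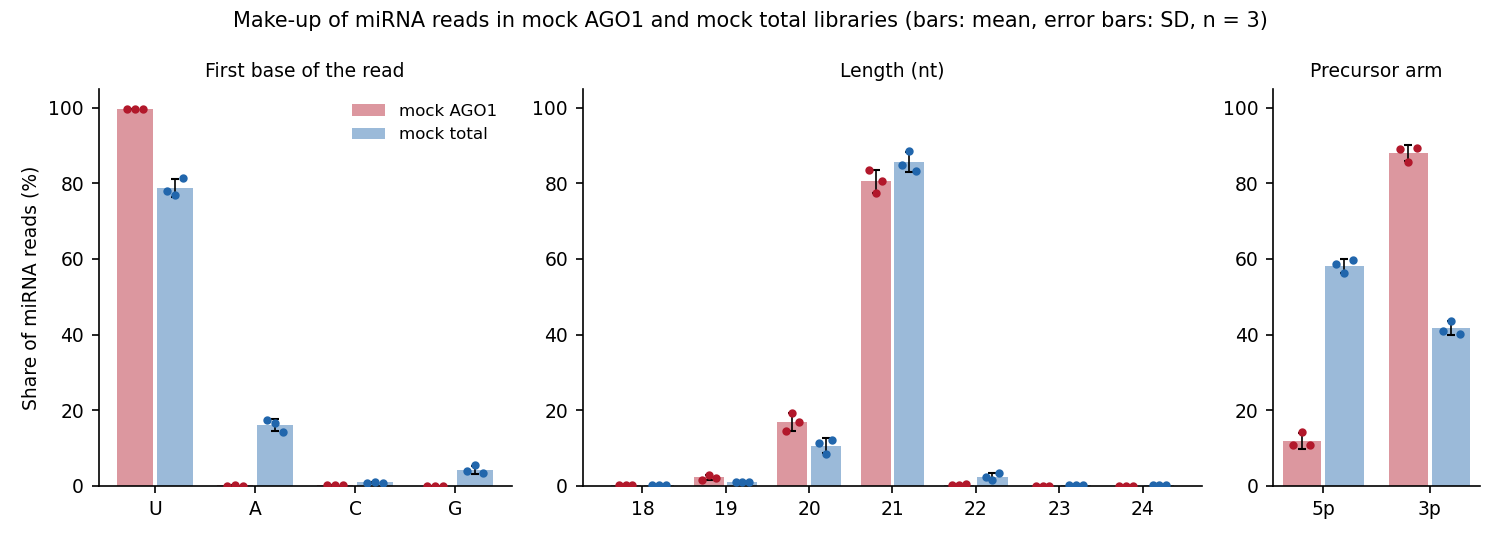
Share of miRNA reads (%) by first base, length and precursor arm in mock AGO1 libraries (red) and mock total libraries (blue); bars are means, error bars SD and points the 3 libraries of each group. U-first reads take 99.8% of the AGO1 pool and 78.8% of the total pool, and 3p reads take 88.1% of the AGO1 pool and 41.7% of the total pool.

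Single sequences were tested as well. Of 300 distinct sequences tested, 231 were called (77.0%), 97 higher in AGO1 (32.3%) and 134 lower (44.7%), with a median log2 change of -0.24. Of the 187 U-first sequences, 78 were higher and 56 lower, with a median of 0.86, but by library totals alone 55 were higher and 69 lower, with a median of -0.04. None of the 31 A-first sequences was higher and 26 were lower (median -5.19), and by totals 0 and 27. Of the 43 G-first sequences 3 were higher and 36 lower (median -5.62), the same counts as by totals. Of the 39 C-first sequences 16 were higher and 16 lower (median 0.18), and by totals 14 and 18. Among the 97 higher sequences, 44 were listed at 0 in every total library, and the AGO1 level of 36 of these lies under the limit at which total libraries list a sequence. Among the 134 lower sequences, 64 were listed at 0 in every AGO1 library, 18 of them A-first, 28 G-first, 9 C-first and 9 U-first. Sequences listed in 1 library type only passed the filter through that type and had to differ, and their fitted changes, which enter the medians, depend on the listing limit and the pseudocount. The sequences of a family overlap and are not independent, so no test was run over them.

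**Figure D2:**
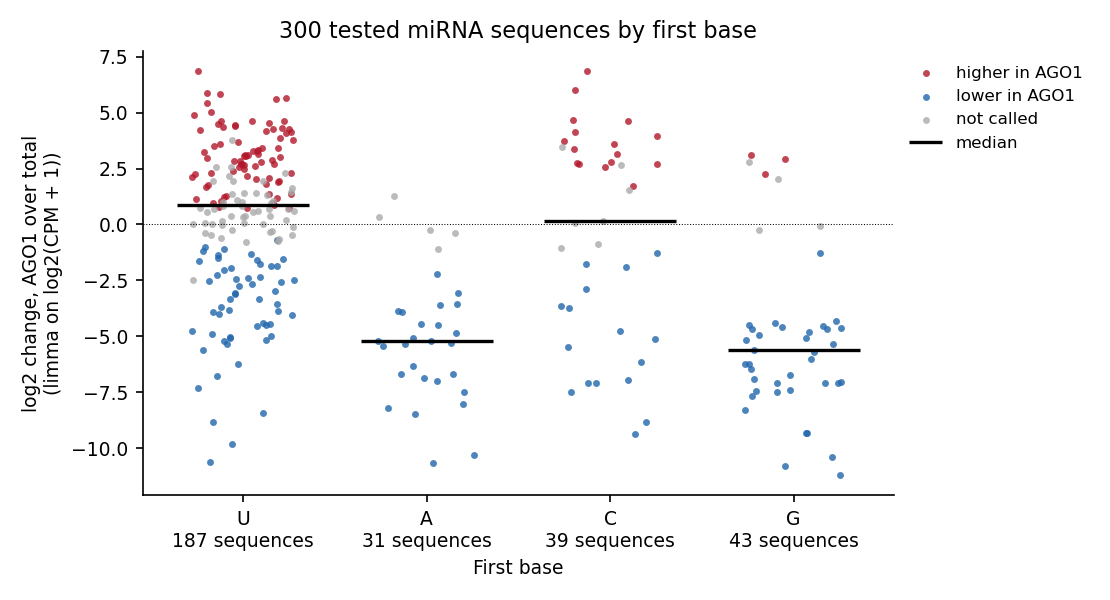
Log2 change, AGO1 over total, of each of the 300 tested sequences (1 point each), grouped by first base; colours give the call at an adjusted p of 0.05 and black lines the medians. The U-first median is 0.86 (-0.04 by totals) and the A-first and G-first medians are -5.19 and -5.62, and U-first sequences spread from -10.6 to 6.84.

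Of the 16 C-first sequences that were higher, 5 belong to miR158, 4 to miR396 and 3 to miR166, families with a U-first main sequence. The most abundant of them, a miR158-3p form that matches MIR158b, averaged 524 CPM in AGO1 libraries and 155 CPM in total libraries (log2 change 2.79 ± 0.22, adjusted p = 4.15e-05). A C-first form of miR166-3p averaged 82.0 CPM in AGO1 libraries and was listed at 0 in total libraries. Both are printed because they are exceptions to the U-first pattern among well-covered sequences.
miR158-3p, C-first form: cCCCAAATgtagacaaagca
miR166-3p, C-first form: cTCGGACCaggcttcattccc

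A first U did not by itself go with a high AGO1 level. Among the 56 U-first sequences that were lower are the main sequences of miR164, miR168, miR167, miR173 and miR160, printed above. The second base was then looked at, a choice made after the values were seen. Over all 187 U-first sequences 41.7% were higher and 29.9% lower. U-first sequences with A or C next were mostly higher, 13 of 18 and 25 of 34, with 1 and 4 lower. Those with G next were mostly lower, 29 of 57, with 14 higher and a median log2 change of -1.20. With U next, 26 of 78 were higher and 22 lower, but by totals 12 and 28. Of the higher sequences, 9 of 13 with A next and 11 of 25 with C next were listed at 0 in every total library. With G and U next it was 5 of 14 and 8 of 26. Such sequences passed the filter through AGO1 libraries alone and had to be higher. The GC content of U-first sequences had a median of 42.9% among those higher and 52.4% among those lower, with ranges that overlap (23.8 to 68.4% and 27.3 to 77.8%). These counts follow a few large families, which share their 5′ ends, and serve as a description.

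By length, 21-nt reads averaged 80.6 ± 3.09% in AGO1 libraries and 85.6 ± 2.64% in total libraries, and the libraries overlapped (exact permutation p = 0.2). The AGO1 libraries held more 20-nt reads, 16.8 ± 2.37% against 10.6 ± 1.92% in total libraries. They held fewer 22-nt reads, 0.305 ± 0.0471% against 2.38 ± 0.857% in total libraries. miR166 and miR165, both 21 nt long, fill much of this. Without them 21-nt reads were 53.9 ± 1.31% of AGO1 libraries and 82.9 ± 2.39% of total libraries, with no overlap (exact permutation p = 0.1). Likewise 20-nt reads were 40.2 ± 1.54% of AGO1 libraries and 12.6 ± 1.74% of total libraries (exact permutation p = 0.1). The 20-nt class in AGO1 was mostly miR158-3p. Reads of 24 nt, nearly all of them the long main form of miR163, averaged 0.0148 ± 0.00429% in AGO1 libraries and 0.185 ± 0.0883% in total libraries.

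At the level of families, 60 of 80 were called (75%), 28 higher in AGO1 (35%) and 32 lower (40%), and the 6 libraries did not overlap for 76.2% of families. The main AGO1 sequence of all 28 higher families begins with U, but so do 99.8% of AGO1 reads, which left little room for another count. Of the 32 lower families, the main sequence in total libraries begins with U in 17, with A in 8, with C in 4 and with G in 3. Of the families not called it begins with U in 17 and with A in 3. The higher and lower counts rest on different library types and cannot be set side by side. For example, miR408 and miR169, counted here under A and G, have a U-first main sequence in AGO1 libraries. How many are called each way depends on the scaling: with library totals alone 17 were higher and 41 lower, with median-of-ratios factors 38 and 29, and scaled to genome-matched reads 48 and 20. The median log2 change of all families moved with it, 0.13 by TMM, -1.0 by totals, 0.80 by median-of-ratios factors and 1.86 by genome-matched reads. Of the 28 families higher, 17 kept the call under all 4 scalings, and 20 of the 32 lower families did. Of the higher families 9 were listed at 0 in all 3 total libraries, and 8 of those, among them miR397, miR839 and miR844, lay at levels under the listing limit of total libraries, so that no fold can be given. Counting only reads above a listing limit common to all libraries, 12 families were higher and 29 lower of 57 tested. The families described next, apart from those said to differ, kept their call by TMM, by totals, by median-of-ratios factors and under that common limit: 7 higher and 26 lower.

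**Figure D3:**
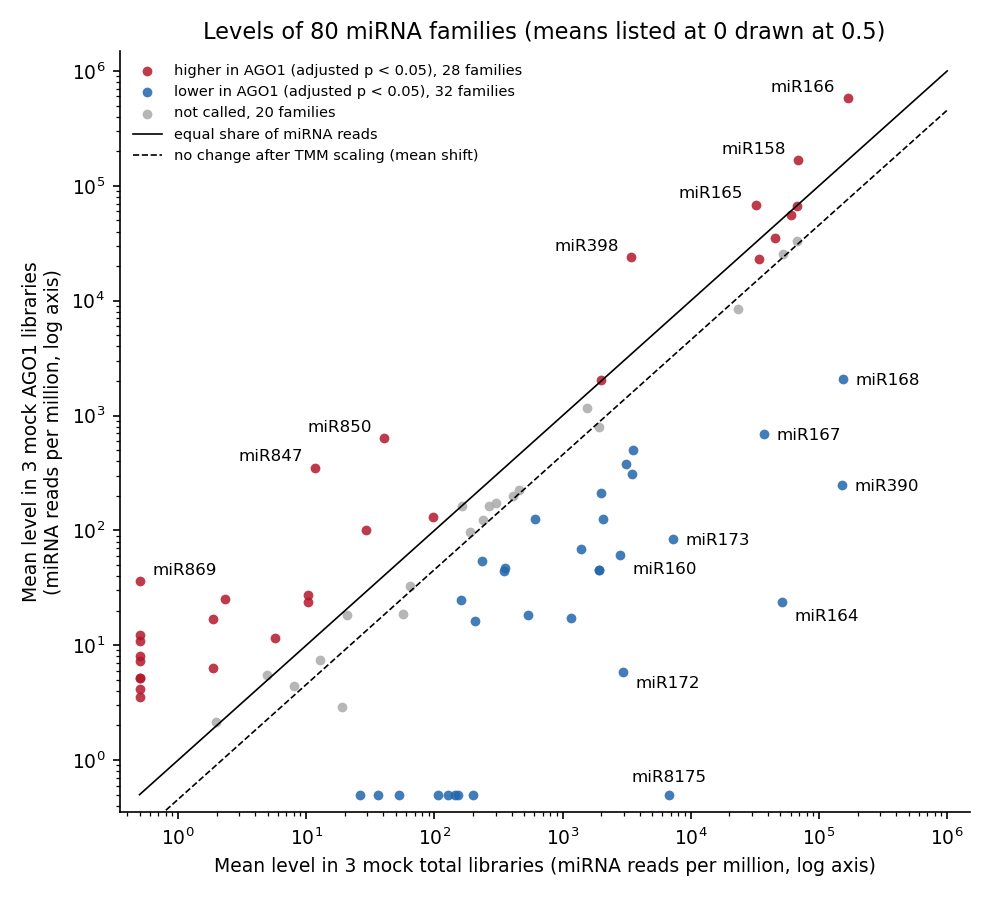
Mean level of the 80 tested families in mock AGO1 libraries (vertical, CPM of miRNA reads, log axis) against mock total libraries (horizontal, same unit); means listed at 0 are drawn at 0.5. Points above the solid line hold a larger share of AGO1 reads than of total reads, the dashed line lies 1.13 below it on the log2 scale, and miR164, miR390 and miR172 lie farthest below both among families listed in AGO1.

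miR166 and miR165 restrain class III homeodomain-leucine zipper genes and so leaf polarity. miR166 made up 66.0, 51.8 and 57.3% of miRNA reads in AGO1 libraries, against 15.3, 21.5 and 13.6% in total libraries. Every AGO1 library was above every total library, and the log2 change was 2.95 ± 0.37 (SE; adjusted p = 0.000257). miR165 averaged 6.86 ± 1.11% in AGO1 libraries and 3.20 ± 1.01% in total libraries (log2 change 2.26 ± 0.41, adjusted p = 0.00168). The main miR165 sequence is also listed under miR166, so the miR166 values include its reads and the pair is not independent. That sequence averaged 68423 CPM in AGO1 libraries and 31707 CPM in total libraries. The main sequence of miR166 alone averaged 512267 CPM in AGO1 libraries and 122045 CPM in total libraries. Both are also known as AGO10 partners, and both were among the higher families here.

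miR158 held 14.2, 19.4 and 16.9% of miRNA reads in AGO1 libraries, against 7.25, 4.65 and 8.71% in total libraries. Its log2 change was 2.46 ± 0.23 (adjusted p = 4.66e-05). It ranked behind miR166 in AGO1 libraries. A few families filled the AGO1 libraries: 5 or 6 families held 90% of AGO1 reads, against 11 families in each total library (overlapping families counted once).

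miR398 represses copper superoxide dismutases and is made when copper is short. It had 17564, 25634 and 28256 CPM in AGO1 libraries, against 2900, 3277 and 4122 CPM in total libraries. All AGO1 values were above all total values, and the log2 change was 3.91 ± 0.27 (adjusted p = 1.18e-05). miR850 had 419, 881 and 595 CPM in AGO1 libraries, against 34.5, 38.6 and 48.8 CPM in total libraries (log2 change 4.99 ± 0.25, adjusted p = 3.26e-06). miR847, which targets the auxin repressor IAA28, had 343, 454 and 259 CPM in AGO1 libraries, against 10.6, 19.7 and 4.94 CPM in total libraries (log2 change 5.99 ± 0.54, adjusted p = 4.13e-05). The total values of miR847 rest on few reads. miR869 had 24.9, 44.3 and 38.5 CPM in AGO1 libraries and was listed at 0 in total libraries, which makes it at least 2.03-fold higher against the mean listing limit per library. These 3 families were scarce in total libraries. miR400, which targets pentatricopeptide repeat genes, had 115, 127 and 62.5 CPM in AGO1 libraries, against 44.4, 0 and 43.8 CPM in total libraries. Its call (log2 change 3.95, adjusted p = 0.0263) was lost by totals (2.95, adjusted p = 0.124) and without any 1 of the AGO1 libraries (adjusted p 0.0874 to 0.0955).

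**Figure D4:**
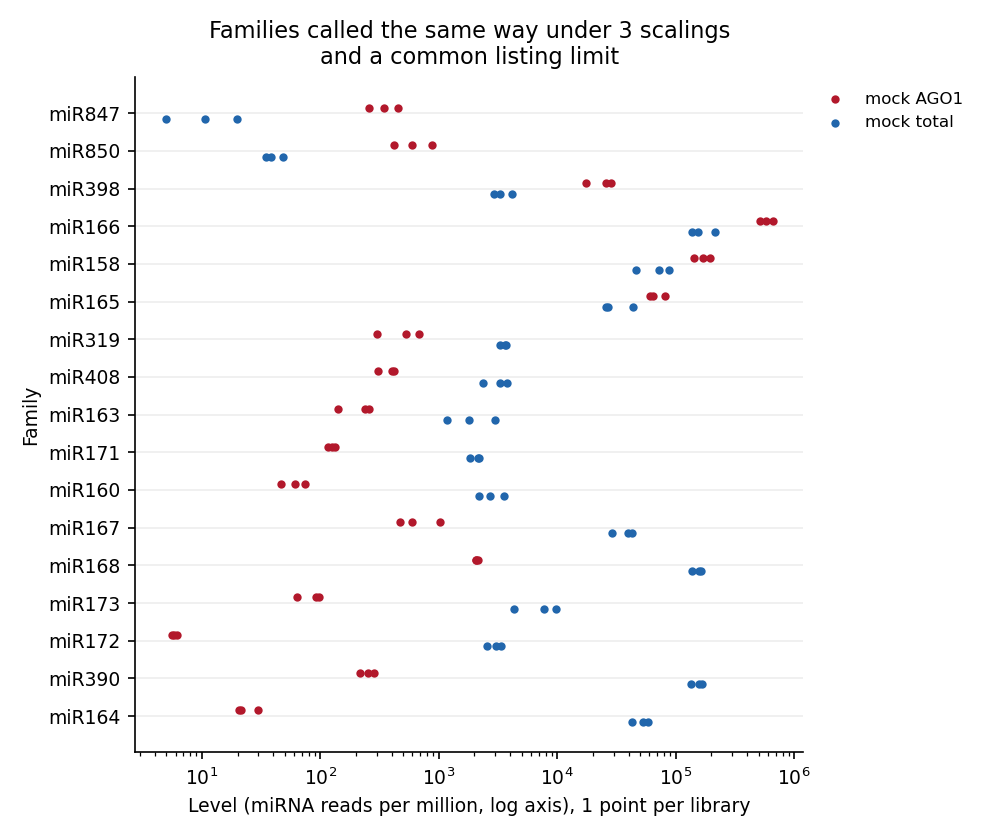
Level of 17 families in each mock AGO1 library (red) and mock total library (blue), in CPM of miRNA reads on a log axis. The upper 6 families are higher in every AGO1 library and the lower 11 are lower in every AGO1 library, with no overlap for any of the 17.

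miR390 triggers trans-acting small interfering RNAs (siRNAs) from TAS3 transcripts with AGO7. It had 253, 283 and 216 CPM in AGO1 libraries, against 166254, 155727 and 134853 CPM in total libraries. The mean was 608-fold higher in total libraries, and the log2 change was -8.11 ± 0.25 (adjusted p = 5.99e-07). By its mean in total libraries, 15.2 ± 1.6% of reads, miR390 ranked behind miR168 and miR166. The rank of miR166 above it depends on the reads of the main miR165 sequence, which are counted in both families. miR172, which represses AP2-like genes at the change to the adult phase, had 5.80, 6.19 and 5.62 CPM in AGO1 libraries, against 2543, 3014 and 3343 CPM in total libraries (log2 change -7.68 ± 0.28, adjusted p = 5.99e-07). Both have an A-first main sequence.

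miR164, which represses NAC genes such as CUC1 and CUC2 at organ boundaries, is U-first and 21 nt long. It had 20.5, 21.4 and 29.5 CPM in AGO1 libraries, against 42574, 52555 and 57867 CPM in total libraries. The mean was 2139-fold higher in total libraries, more than for miR390 (log2 change -9.89 ± 0.35, adjusted p = 5.99e-07). All 3 AGO1 values lay far below all 3 total values.

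miR168 represses AGO1 itself. It had 2080, 2132 and 2059 CPM in AGO1 libraries, against 138436, 158008 and 162415 CPM in total libraries (log2 change -5.06 ± 0.26, adjusted p = 3.64e-06). In shares it held 0.209% of AGO1 reads and 15.3% of total reads. The other members of the silencing list were not called: miR162, which represses DICER-LIKE1, averaged 0.848% in AGO1 libraries and 2.35% in total libraries (log2 change -0.34, adjusted p = 0.295), and miR403, which represses AGO2, averaged 2.56% in AGO1 libraries and 5.27% in total libraries (0.05, adjusted p = 0.852). By totals both were lower (-1.48 and -1.09, adjusted p = 0.00112 and 0.0081), and scaled to genome-matched reads both were higher (1.86 and 2.25). miR838, from an intron of DICER-LIKE1, had 2.04 (adjusted p = 0.0751).

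Several auxin-related families were scarce in AGO1. miR167, which represses ARF6 and ARF8, had 473, 596 and 1017 CPM in AGO1 libraries, against 39537, 28791 and 42804 CPM in total libraries (log2 change -4.66 ± 0.37, adjusted p = 2.20e-05). miR160, which represses ARF10, ARF16 and ARF17, averaged 60.5 ± 13.6 CPM in AGO1 libraries and 2810 ± 682 CPM in total libraries (-4.38 ± 0.41). Of the 6 members of the auxin list 1 was higher (miR847), 4 were lower (miR164, miR390, miR167 and miR160) and miR393 was not called. Over all 80 families 35% were higher and 40% lower, and the list is too short to be told apart from those shares. The median log2 change of the list was -4.52, beside 0.13 over all families tested.

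miR173, a 22-nt trigger of siRNAs from TAS1 and TAS2 transcripts, had 98.3, 92.5 and 63.9 CPM in AGO1 libraries, against 7762, 4306 and 9696 CPM in total libraries (log2 change -5.22 ± 0.35, adjusted p = 1.03e-05). Of 7 tested triggers 3 were lower (miR390, miR168 and miR173) and 2 higher, with a median of 0.14, near the shares over all families (35% higher, 40% lower). The 2 higher were miR400 and miR161, and neither kept its call by totals. Among development families 5 were higher and 5 lower of 11 (median 0.05), also near those shares. miR170 and miR171, which repress HAIRY MERISTEM genes and share their main sequence, a 5p form, averaged 69.5 and 125 CPM in AGO1 libraries and 1385 and 2059 CPM in total libraries (log2 change -3.18 and -2.90). Their 5p arms had -2.95 and -2.96. The 3p arm of miR170 was scarce in both library types and not called (0.06, adjusted p = 0.949), and that of miR171 was lower (-1.90, adjusted p = 0.00402). Which arm acts on these genes was not tested. miR319, which represses TCP genes, averaged 504 CPM in AGO1 libraries and 3538 CPM in total libraries (-1.75 ± 0.35, adjusted p = 0.00271). This direction depends on the scaling, since miRNAs averaged 80.2% of genome-matched reads in AGO1 libraries and 8.54% in total libraries. miR163 and miR408, which were more strongly lower by TMM, turned direction by genome-matched reads, as given below. miR156 and miR157, repressors of SPL genes, and miR159, a repressor of MYB genes, were higher by TMM (1.02, 0.76 and 1.10), but had -0.11, -0.38 and -0.04 by totals, where none was called. The call of miR157 was also lost without total replicate 1 (0.53, adjusted p = 0.104), and that of miR161 without total replicate 1 (0.38, adjusted p = 0.239) or 3 (0.43, adjusted p = 0.083).

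None of the 5 tested families of the phosphate, sulfate and nitrogen list was higher, and 4 were lower (median -2.65), beside 28 higher and 32 lower of all 80. miR2111 was listed at 0 in AGO1 libraries and averaged 146 ± 4.26 CPM in total libraries, so it was at least 78.0-fold lower in AGO1, against the listing limit per library. Its reads in total libraries were of a 3p sequence. miR169, which represses NF-YA genes, averaged 18.3 CPM in AGO1 libraries and 534 CPM in total libraries (-3.69 ± 0.27). In total libraries 99.5% of miR169 reads were 3p, so the family value is that of its 3p arm. By TMM the 5p arm went the other way (4.16), at levels near the listing limit of total libraries. miR395, which represses ATP sulfurylases, averaged 16.2 CPM in AGO1 libraries and 208 CPM in total libraries (-2.65 ± 0.47). miR827, which represses NLA, averaged 127 CPM in AGO1 libraries and 611 CPM in total libraries (-1.13 ± 0.30, adjusted p = 0.0103). The call of miR827 was lost under the median-of-ratios factors (-0.45, adjusted p = 0.184), and its direction turned by genome-matched reads (1.05). Of 9 tested defence families 4 were higher and 2 lower (median 0.72), beside 28 and 32 of all 80 families, the higher ones being miR398, miR400, miR844 and miR846. By totals 2 of the 9 were higher and 4 lower. Of the 3 tested secondary-metabolism families, miR163 was lower, miR156 higher and miR858 not called. Of the 3 tested copper families miR398 and miR397 were higher and miR408 was lower, beside 28 and 32 of all 80 families. The miR397 reads, 4.88, 12 and 5.15 CPM in AGO1 libraries, lie under the listing limit of total libraries. In miR408 the 5p arm was lower (log2 change -5.07, adjusted p = 2.59e-06), and the 3p arm was not called by TMM (0.15, adjusted p = 0.707). By genome-matched reads the families miR163 and miR408 had 0.17 and 0.30.

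Families were also counted in 2 lists, a chosen list of conserved families and, as young families, every other family with an annotated MIR locus. Age itself was not measured, and the counts of the 2 lists were not tested against each other. miR394 of the conserved list and miR384 of the young list hold the same reads and count as lower in both. Of 28 conserved families 8 were higher and 15 lower (median -1.44), and of 47 tested young families 20 were higher and 12 lower (median 0.88), beside 35% higher and 40% lower over all families. Of the 20 young families that were higher, 8 were listed at 0 in total libraries, whose listing limit is higher. By totals 12 young families were higher and 16 lower, with a median of 0.00, and 5 conserved families were higher and 20 lower.

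All 5 tested families without a MIR locus were lower, with a median log2 change of -6.16, beside 40% lower over all families. miR5139 (at least 53.1-fold), miR8155 (at least 81.9-fold) and miR6173 (at least 13.6-fold) were listed at 0 in AGO1 libraries, and miR8155 reads are all of a sequence that is also listed under miR5139. miR5368 (at least 9.69-fold) was too, but it was not among the 57 families tested under the common listing limit. Families listed at 0 in AGO1 libraries passed the filter through total libraries alone and had to be lower. Of the tested families without a MIR locus, only miR6478 could have gone the other way. miR6173 and miR5368 match plastid ribosomal RNA and miR6478 matches tRNA. miR8175, which has an annotated locus, had 7758, 9489 and 2935 CPM in total libraries and was listed at 0 in AGO1 libraries, at least 721-fold lower. Of the families described from other organs, miR866 was at least 28.6-fold lower and miR846 was higher (log2 change 1.53, but 0.41 and not called by totals). miR839 had 14.8, 9.28 and 13.1 CPM in AGO1 libraries.

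Within families 5p and 3p reads could be compared without any scaling, as the share of the family's reads from the 3p arm. Over all families 3p reads were 88.1 ± 2.09% of AGO1 reads and 41.7 ± 1.81% of total reads, and without miR165 and miR166 they were 71.2% of AGO1 reads and 31.5% of total reads. Of 36 families with both arms listed, 23 had exactly 1 arm whose main sequence begins with U and reads in both library types. The share of the U-first arm was higher in AGO1 in 19 of the 23 and not higher in 4. Where the libraries did not overlap, it was higher in 17 and lower in 3. A family can hold several hairpins, and the first base of an arm is that of its most abundant sequence, which need not be the main form in both library types. Tested arm by arm, 83 of 104 arms were called (79.8%), 35 higher (33.7%) and 48 lower (46.2%), and 10 of 30 families with both arms tested had arms called in opposite directions.

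**Figure D5:**
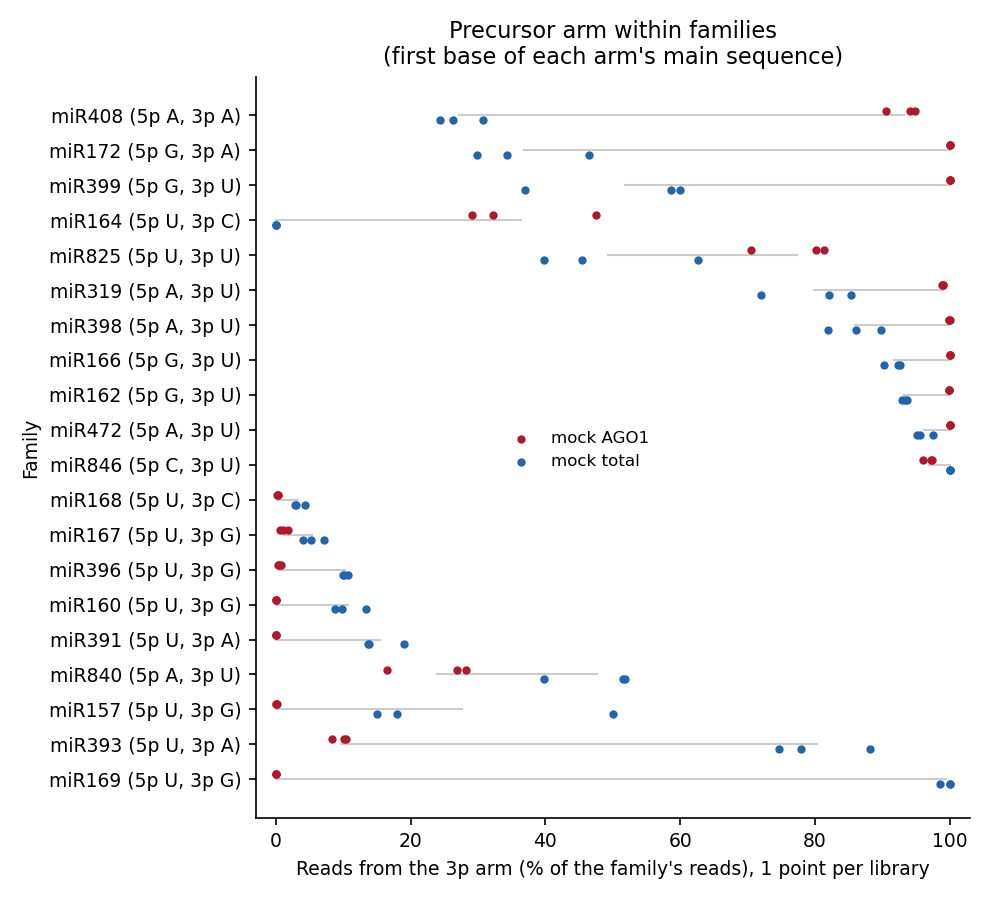
Share of each family's reads that come from the 3p arm, in each mock AGO1 library (red, upper points) and mock total library (blue, lower points), for the 20 families whose libraries do not overlap and whose means differ by over 2 percentage points. Labels give the first base of each arm's main sequence; the 3p share of miR169 and miR393 is lower in AGO1 and that of miR408, miR172 and miR399 is higher.

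The 5p and 3p reads of miR169 come mostly from different hairpins, so their values do not compare 2 arms of 1 precursor. AGO1 libraries held no listed 3p read of miR169 (3p share 0% in each), while total libraries held 100, 100 and 98.6% 3p reads. The 5p arm had 14.5, 21.5 and 18.9 CPM in AGO1 libraries, against 0, 0 and 6.92 CPM in total libraries, and the 3p arm was at least 23.8-fold lower in AGO1. The 5p level in AGO1 libraries is near the listing limit of total libraries, so their 5p share is not well measured. In miR393, which represses the auxin receptors TIR1 and AFB2, the 3p share was 8.30, 10.1 and 10.3% in AGO1 libraries, against 78.0, 88.2 and 74.7% in total libraries. Its 5p arm was higher by TMM (2.66 ± 0.46, adjusted p = 0.00107) but not by totals (1.27, adjusted p = 0.0771), and its 3p arm was lower (-2.61 ± 0.27, adjusted p = 5.35e-05). The 4 arms are shown because the U-first one has the larger share in AGO1 in both families.
miR169-5p, MIR169h and 6 further loci, minus strand, chr1:6695544-6695564: tAGCCAAGgatgacttgcctg
miR169-3p, MIR169d and MIR169g, minus strand, chr1:20039499-20039519: gCAAGTTGaccttggctctgt
miR393-5p, MIR393a and MIR393b, plus strand, chr2:16652111-16652132: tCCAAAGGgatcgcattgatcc
miR393-3p, MIR393b, plus strand, chr3:20691778-20691798: aTCATGCGatctctttggatt

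miR399, which represses the ubiquitin conjugase PHO2, had 100% 3p reads in each AGO1 library, against 58.7, 37.0 and 60% in total libraries. The family was not called (log2 change 0.04, adjusted p = 0.931), but its 5p arm was at least 30.1-fold lower in AGO1. In miR157 the G-first 3p arm made up 0.0838, 0.0576 and 0.0684% of reads in AGO1 libraries, against 18, 50 and 15% in total libraries. For miR166 the 5p arm had 5.31, 13.5 and 5.00 CPM in AGO1 libraries, against 11638, 15900 and 13262 CPM in total libraries (log2 change -9.36 ± 0.32, adjusted p = 2.24e-07), while its 3p arm was higher (3.35 ± 0.35). miR398-5p averaged 2.76 CPM in AGO1 libraries and 477 CPM in total libraries, while its 3p arm averaged 23815 CPM in AGO1 libraries and 2956 CPM in total libraries.

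The 3 families counted with a lower share of the U-first arm were miR164, miR840 and miR846. In miR164 the 3p share was 47.5, 29.2 and 32.3% in AGO1 libraries, against 0.0414, 0.0245 and 0.0461% in total libraries. The large difference was in the 5p arm. The C-first 3p arm had 9.75, 6.26 and 9.54 CPM in AGO1 libraries and 17.6, 12.9 and 26.7 CPM in total libraries. It was not called by TMM (log2 change 0.27, adjusted p = 0.603), which adds a mean of 1.41 to arms. By totals its main sequence had -0.76. The total values are near the listing limits of those libraries (9.23 to 24 CPM), so the 3p arm is not well measured. In miR840 the 3p share was 23.9 ± 6.47% in AGO1 libraries and 47.7 ± 6.86% in total libraries, but the 5p arm changed its main form. The A-first 22-nt 5p form made up 18.1% of the family in AGO1 libraries and 47.0% in total libraries, and a C-first 21-nt 5p form made up 58.1% in AGO1 libraries and 5.28% in total libraries. All miR840 levels in total libraries are close to the listing limit. In miR846 the 3p share was 96.9 ± 0.703% in AGO1 libraries and 100% in total libraries, which could not have listed a 5p arm at its AGO1 level of 4.04 CPM, so no difference was measured.

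miR408 and miR172 have no U-first main arm. miR172-5p, which is G-first, was listed at 0 in AGO1 libraries and averaged 1859 CPM in total libraries, at least 249-fold lower in AGO1. In miR408, which represses plantacyanin and laccases, the 3p share was 94.1, 90.6 and 94.8% in AGO1 libraries, against 24.4, 30.7 and 26.3% in total libraries. Its 3p reads are split between 2 starts that lie 1 base apart, an A-first and a U-first form. The U-first 20-nt form had 200, 191 and 129 CPM in AGO1 libraries, against 10.6, 50.6 and 55.4 CPM in total libraries (log2 change 3.40 ± 0.66, adjusted p = 0.00359). The A-first form had 71.5, 73.6 and 80.5 CPM in AGO1 libraries, against 505, 843 and 814 CPM in total libraries (-2.19 ± 0.27, adjusted p = 0.000383). Forms of the same arm thus changed in opposite directions.
miR408-3p, U-first form, MIR408, plus strand, chr2:19319934-19319953: tGCACTGCctcttccctggc
miR408-3p, A-first form, MIR408, plus strand, chr2:19319933-19319953: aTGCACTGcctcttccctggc
miR408-5p, MIR408, plus strand, chr2:19319866-19319886: aCAGGGAAcaagcagagcatg

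Variants with the same first base also differed. miR396, which represses growth-regulating factors, was not called as a family (log2 change 0.05, adjusted p = 0.884). It consists of a product of MIR396a and a product of MIR396b, which differ by G21T (position from the 5′ end, the MIR396a base first). The MIR396b product made up 92.0, 89.9 and 86.9% of the family's reads in AGO1 libraries, against 19.7, 24.5 and 21.9% in total libraries. The MIR396a product made up 5.33, 6.56 and 9.66% in AGO1 libraries, against 68.0, 63.4 and 66.3% in total libraries. By sequence the MIR396b product was higher (1.96 ± 0.29, adjusted p = 0.00101) and the MIR396a product lower (-3.31 ± 0.13, adjusted p = 3.05e-06), also by totals (0.94 and -4.33). Neither share overlapped between library types, though the sequences share their seed.
miR396-5p of MIR396b, plus strand, chr5:13611808-13611828: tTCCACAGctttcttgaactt
miR396-5p of MIR396a, minus strand, chr2:4142443-4142463: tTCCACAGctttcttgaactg

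miR161, which targets pentatricopeptide repeat genes, gives overlapping 5p sequences from a single locus, whose starts lie 1 base apart in the 2 main forms. The form that starts later made up 56.4, 61.2 and 60.4% of the family in AGO1 libraries, against 39.8, 40.4 and 41.5% in total libraries. The form that starts earlier made up 28.6, 24.4 and 24% in AGO1 libraries, against 57.3, 57.1 and 55.1% in total libraries. Both begin with U. Another, 20-nt form took 9.03, 7.47 and 8.84% in AGO1 libraries, against 0.898, 0.576 and 1.26% in total libraries.
miR161 later form, MIR161, plus strand, chr1:17825731-17825751: tGAAAGTGactacatcggggt
miR161 earlier form, MIR161, plus strand, chr1:17825730-17825750: tTGAAAGTgactacatcgggg
miR161 20-nt form, MIR161, plus strand, chr1:17825722-17825741: tCAATGCAttgaaagtgact

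Length variants shifted in other families. In miR398 the 21-nt 3p form held 99.7, 99.7 and 99.8% of the family in AGO1 libraries, against 60.1, 64.7 and 59.1% in total libraries, where 20-nt and 19-nt forms that lack its last bases held 13.9% and 8.65%. In miR163, which represses methyltransferases of secondary metabolism, the 24-nt main form held 71.6, 67.5 and 71.1% in AGO1 libraries, against 95.0, 93.1 and 90.4% in total libraries. The 18-nt and 19-nt forms of miR163 held 7.61% and 8.01% in AGO1 libraries and were listed at 0 in total libraries, where their share lies under the listing limit. In miR158 the 19-nt form held 10.3, 14.2 and 11.1% in AGO1 libraries, against 6.51, 7.66 and 6.61% in total libraries. In miR159 both main forms, which differ by A21T, kept their shares (50.6% and 46.6% of the family in AGO1 libraries, 50.8% and 46.5% in total libraries).

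The same difference was set against that of the other treatments in a fit of all 18 libraries. Of 95 families tested, 1 (1.05%) differed between mock and untreated leaves, miR4995 (difference of log2 changes 6.21 ± 1.28, adjusted p = 0.0187), and 0 (0%) differed between mock and Alternaria-treated leaves. At an unadjusted p under 0.05 there were 14 and 7 families, and limma-voom called 0 in both. miR4995, whose sequences match plastid ribosomal RNA, was listed at 0 in all 9 AGO1 libraries, so the value comes from total libraries: 48.6, 0 and 0 CPM in mock total libraries, against 276, 310 and 458 CPM in untreated total libraries. For the families that stand out here the differences from other treatments were not called, which does not show that they are equal. In the authors' deposited table, 55 families pass an adjusted p of 0.05 for mock AGO1 over mock total, 26 of them higher and 29 lower. The calls made here share 50 of those 55, each in the same direction, and add 10.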

How the data were processed

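Small RNA reads of 6 mock libraries (3 AGO1-immunoprecipitated, 3 total; 18 in the series) were analysed from the authors' tables. Per the submitters' processing notes, the authors used FastQC, cutadapt and DESeq 1.2 or DESeq2, and build TAIR10. Per the file headers, reads were profiled against known plant miRNAs with miRProf without mismatches. The deposited abundance table gives whole read numbers per sequence and run; it was recorded as a unit other than plain counts, since family names stand among the numbers, and no count model was run. The authors' deposited comparison table gives group means as a signal, log2 ratios and p-values; these were compared with the fit and entered no test.

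The 2 runs of a library were summed. Reads were scaled to CPM of miRNA reads with TMM (trim 0.3 of ratios, 0.05 of abundances) and log2(CPM + 1) values were tested in R 4.3.3 by limma 3.58.1, whose moderation used the trend and robust options. Benjamini-Hochberg adjustment ran over every feature tested and 0.05 was the threshold. Adjusted p-values in the text come from limma. A feature was tested when 3 libraries held 10 reads at the median depth and the total was at least 15. Families, 300 distinct sequences and 104 arms were fitted apart. Shares were compared by exact permutation of the 6 libraries. Replicates are biological replicates per the labels; the numbers are not stated to pair libraries. Sequences were matched exactly to the RefSeq copy of TAIR10: 461 of 476 had the deposited number of matches and 452 lay within a MIR precursor. Arms follow annotated mature miRNAs or, without one, the side of the precursor's midpoint. Of the 476 sequences 22 stand in more than 1 family.

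Named families were the 12 with the largest change each way (7 qualified as higher), the 6 most abundant of each library type and up to 4 of each list with the smallest p, with a mean of at least 100 CPM where size was the rule. Variants within families were chosen after their values were seen. Members and lists were chosen with earlier results of these data known. In simulated libraries the fit of 90 families recovered 70.0% of 2-fold and 100% of 4-fold changes, with 1 false call. Only 20 families were changed there, in both directions, and no listing limit was applied. The real libraries differ in most families and in listing limit, so these rates do not carry over to them. Data handling used Python 3.11.15 and pandas 2.3.3.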

Additional observations from a re-analysis of the deposited data

Results flagged for a closer look

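For 1 family, miR4995, the AGO1-against-total difference differed between mock and untreated leaves, by 6.21 on the log2 scale (adjusted p = 0.0187 in the limma fit of 18 libraries). It was listed at 0 in every AGO1 library. Without any 1 of the untreated AGO1 libraries, without untreated total replicate 3 and with limma-voom, no family was called.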

How the results depend on the processing

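The number of families called stayed between 41 and 68 across scalings, pseudocounts, filters, limma-voom, the fit of 18 libraries and divided shared reads, beside 60, but its split moved with the scaling as given above. For sequences the split was 119 higher and 124 lower with median-of-ratios factors, 72 and 150 by totals, 161 and 98 by genome-matched reads and 34 and 120 of 196 under the common listing limit. For arms it was 47 and 38, 19 and 59, 55 and 31, and 13 and 46. Without any 1 library, 55 to 63 families, 201 to 250 sequences and 74 to 82 arms were called.

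Directions turned for these families by library totals: miR156 (-0.11), miR157 (-0.38), miR159 (-0.036), miR161 (-0.59), miR396 (-1.09) and miR403 (-1.09). By genome-matched reads miR162 had 1.86, miR163 0.17, miR408 0.30, miR827 1.05 and miR863 0.44, and by median-of-ratios factors miR162 had 0.34. The direction of miR319 also depends on the scaling to genome-matched reads. In the fit of 18 libraries miR396 had -0.12 and miR403 -0.12, and under the common listing limit both had -0.10. Leaving out 1 library, miR162 ranged from -0.66 to 0.0081, miR396 from -0.17 to 0.38 and miR403 from -0.16 to 0.37. The causes were not tested.

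The U-first difference was 20.1 to 22.4 points and the miRNA share difference 70.0 to 74.0 points without any 1 library. The 21-nt difference was -6.53 to -3.44 points and turned to 1.95 (exact permutation p = 0.5) over distinct sequences. Between mock and untreated leaves 1 family differed, but 3 did with median-of-ratios factors, 22 by genome-matched reads, 3 with a pseudocount of 5, 0 with limma-voom and 0 to 6 without 1 library (6 without untreated total replicate 1 or 2, and 2 without any 1 mock total library). Between mock and Alternaria-treated leaves 0 differed, but 1 by totals, 1 with a pseudocount of 0.5 and 0 to 6 without 1 library (6 without mock total replicate 3).

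Replicate numbers were not used to pair libraries in the main fit. The deviations from the group means of same-numbered AGO1 and total libraries had correlations of -0.17, -0.26 and -0.26 over 80 families. With 3 libraries per group these values cannot decide whether same-numbered libraries share plants. With the replicate block 58 families, 228 sequences and 80 arms were called, 1 and 0 families differed between treatments, and the differences of 21, -5.0 and 71.7 points had an exact sign-flip p of 0.25, the smallest possible. Depth limits scarce families in total libraries, since the listing limit averages 1.87 CPM in AGO1 libraries and 17.7 CPM in total libraries.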
